A study of Mus musculus with 4 samples.

Results

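The enzymes and regulators of cholesterol and fatty acid synthesis were examined in rib chondrocytes of C57BL6/J mice at postnatal day 5. The group held 35 genes listed by their place in the pathway, a list drawn up with earlier results of these data known. Of these, 34 had a probe set of their own on the array, out of 18193 genes measured in this way, and *Acat2* was not analysed here. They comprised 17 measured genes of the sterol branch, 6 regulators and sterol transport genes, 10 genes of the fatty acid branch and the patatin-like phospholipase gene *Pnpla3*, which was set apart with its pattern already known, so that its values here are a description and no independent evidence.

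The question was how these genes differed when cartilage carried a misfolding matrilin-3, lacked the unfolded protein response factor XBP1, or both. Double mutant chondrocytes carried both alterations described next. *Matn3* mutant chondrocytes had functional *Xbp1* and were homozygous for a V194D knock-in of *Matn3*, which encodes the cartilage matrix protein matrilin-3. XBP1 null chondrocytes had normal *Matn3* and had lost exon 2 of *Xbp1* through Cre recombinase driven by the *Col2a1* promoter, so that the deletion was restricted to cells that had used this cartilage promoter. Wild type chondrocytes carried neither alteration. Cells were released by collagenase, RNA of 3 extractions was pooled for each genotype, and 1 array was hybridised per genotype. Signals are array intensities with no physical unit and are compared only within a probe set. Because no genotype had a second array, single differences carry neither an error nor a p-value, and 1.5-fold was used to describe size.

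Cholesterol is built from acetyl units through mevalonate, isoprenoids, squalene and lanosterol, and fatty acids are built from the same units by acetyl-CoA carboxylase and fatty acid synthase before elongation and desaturation. Both routes are switched on by the sterol regulatory element binding proteins SREBP-1 and SREBP-2, which are held in the endoplasmic reticulum membrane by SCAP and INSIG and are released by cleavage in the Golgi when membrane sterol is low. Cartilage cells make their own sterols as well as taking them up, and the same membrane houses the sensors of the unfolded protein response.

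The medians of the 4 arrays differed by less than 1 signal unit, and 8.36% to 10.9% of signals were under 1. Chondrocyte markers were high in all pools, with summed signals of 9 genes of 121114 in the double mutant, 115984 in the *Matn3* mutant, 110600 in the XBP1 null and 98749 in the wild type. The *Xbp1* probe set read 9548, 11403, 7877 and 8183 in the same order, and its position relative to the deleted exon was not analysed here, so it does not check the deletion. Other cell types differed between pools. Summed over 10 endothelial markers, the signal was 1244 in the double mutant, 706 in the *Matn3* mutant, 5472 in the XBP1 null and 113 in the wild type, and all 10 were higher in the XBP1 null than in the wild type. Of 10 adipocyte markers 8 were measured and summed to 1747, 1349, 7040 and 800 in that order, mostly from *Fabp4* and *Cd36*, while *Lep* was under 1 throughout and *Adipoq* lay between 6.62 and 28.1. Osteoblast markers (5 of 7 measured) summed to 5266, 2627, 7826 and 5001, skeletal muscle markers (8 of 8) to 2906, 2048, 2605 and 3245, leukocyte markers (6 of 6) to 705, 634, 738 and 537, and erythroid markers (3 of 5) to 16.0, 15.4, 197 and 119. The Y-linked gene *Eif2s3y* read 855, 0.032, 665 and 484, so that only the *Matn3* mutant pool gave no male signal. The part of cell make-up and of sex in the differences below was not tested, and in bulk RNA fewer cells of a type and less RNA per cell cannot be told apart.

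All 34 measured members lay at or above the median intensity of the array, where 10982 of the 18193 genes lay, and these brighter genes serve as the background. Each gene was read from its brightest probe set. On it, none of the 4 comparisons that differ by a single alteration passed 1.5-fold in 23 of the 34. The other 11 were *Mvk*, *Mvd*, *Lss*, *Tm7sf2*, *Nsdhl*, *Hsd17b7* and *Dhcr7* of the sterol branch, *Srebf1* of the regulators, *Acss2* and *Fasn* of the fatty acid branch, and *Pnpla3*. The share of the brighter genes that passed in none of the 4 comparisons was not counted. The 23 and the 11 therefore do not show whether the pathway was steadier than other genes. In the plot of signals by genotype most members form tight groups of 4 points, and *Pnpla3* has the widest spread.

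**Figure D1:**
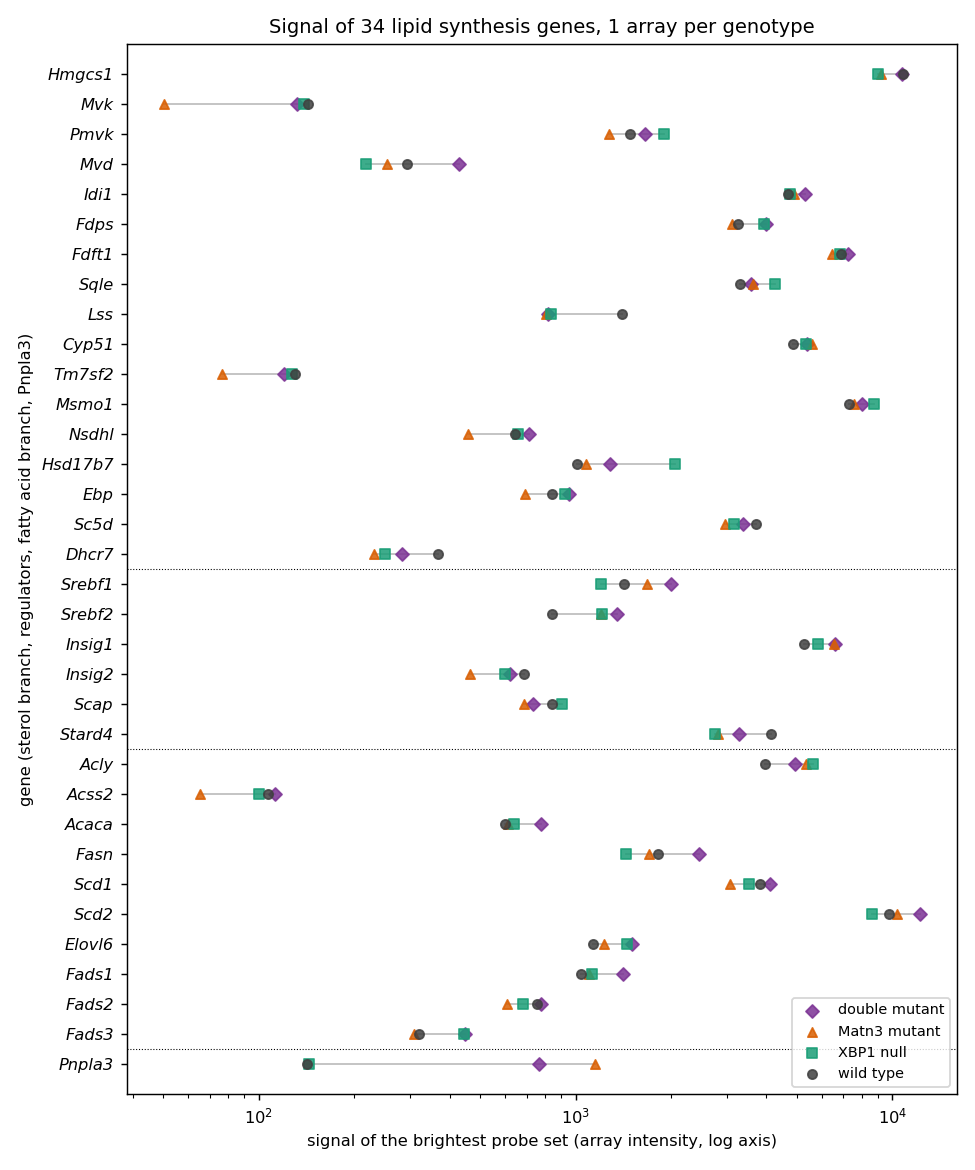
Signal of the brightest probe set of each of the 34 measured genes (horizontal log axis, array intensity) in the double mutant, the *Matn3* mutant, the XBP1 null and the wild type, 1 array each, with dotted lines between the branches. *Pnpla3* spans 8.11-fold from its lowest to its highest signal, and *Mvk* is lowest in the *Matn3* mutant at 50.4.

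*Pnpla3* showed the widest spread of any member. It encodes a lipase and acyltransferase of lipid droplets and is a target of SREBP-1 in liver. Its signals were 769 in the double mutant and 1149 in the *Matn3* mutant, against 144 in the XBP1 null and 142 in the wild type. Both pools with the *Matn3* mutation were high and both without it were low. The *Matn3* mutant was 8.11-fold above the wild type (log2 difference 3.02), and the double mutant was 5.34-fold above the XBP1 null (log2 difference 2.42). Those comparisons share no array. Loss of XBP1 made little difference with normal *Matn3* (log2 difference 0.02), and the double mutant lay below the *Matn3* mutant by 1.49-fold (log2 difference -0.58), just inside the 1.5-fold limit.

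Of the 10982 brighter genes, 3 had 2.42 or more as the smaller of their paired *Matn3* differences, namely *Derl3* at 4.66, *Slc15a2* at 2.64 and *Pnpla3*. *Derl3* encodes a derlin of endoplasmic reticulum degradation, and *Slc15a2* a peptide transporter. The next gene below *Pnpla3*, *1810014B01Rik*, had 1.84, and these neighbours are named after their values were seen. Over both backgrounds 2.05% of the brighter genes were more than 1.5-fold higher with the mutation, and *Pnpla3* was the single member to be so. Of the 8 measured adipocyte markers, the summed signal was highest in the XBP1 null, where *Pnpla3* was low. Within the list *Plin4*, at 51.0 in the double mutant, 25.6 in the *Matn3* mutant, 16.5 in the XBP1 null and 3.28 in the wild type, and *Retn*, at 19.0, 11.2, 5.29 and 2.27, were higher in both *Matn3* mutant pools than in both others, as *Pnpla3* was. Both were dim, with mean log2 of 4.03 and 2.83 against a median of 5.38 over probe sets. Between double mutant and XBP1 null 4 of the markers were lower, by log2 differences of -1.89 (*Fabp4*), -2.63 (*Cd36*), -1.63 (*Pparg*) and -1.63 (*Adipoq*). The part of adipocytes in the *Pnpla3* signal was not tested.

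A model of additive effects of the *Matn3* mutation and of loss of XBP1 over the 4 arrays, with 1 residual degree of freedom and adjustment over 45037 probe sets, gave *Pnpla3* a *Matn3* effect of 2.72 ± 0.233 (log2, SE; limma adjusted p = 0.635) and an XBP1 effect of -0.28 ± 0.233. No probe set passed an adjusted p of 0.05 for either effect (0% of the array). Without adjustment 3381 probe sets (7.51%) had p under 0.05 for *Matn3* and 2052 (4.56%) for XBP1. Restricted to the brighter 22519 probe sets (mean log2 no lower than the median), the fit called 13 probe sets for *Matn3* (0.0577%), and *Pnpla3* was the 1 member among them (adjusted p = 0.0422). That fit called 0% for XBP1. Over all alternatives the adjusted p of *Pnpla3* for *Matn3* ran between 0.0422 and 0.706. The restricted fit differed in its estimate of spread as well as in the number of tests, with 7.53 prior degrees of freedom against 1.06 in the fit of all probe sets and a standard error of 0.313 for *Pnpla3*. As no genotype had a second array, the residual of these fits is the departure from additive effects. Their errors and p-values therefore do not measure variation between animals or pools.

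The stretch upstream of the transcription start is shown for 4 genes, as the DNA through which such genes are controlled. *Pnpla3* is shown for its spread, *Hmgcs1* as the member that held the sterol element searched for, *Mvk* for the largest negative difference and *Hsd17b7* as the member most above wild type in the XBP1 null. The sequences are RefSeq's, build GRCm38.p6, the 250 bases before the start, read 5′ to 3′ on the strand of the gene. *Pnpla3* is at chr15:84167566-84167815 (plus strand), *Hmgcs1* at chr13:119690101-119690350 (plus strand), *Mvk* at chr5:114444019-114444268 (plus strand) and *Hsd17b7* at chr1:169969206-169969455 (minus strand). Capitals mark CCAAT boxes, read as CCAAT or ATTGG, and in *Hmgcs1* also the match to the sterol element.
Pnpla3: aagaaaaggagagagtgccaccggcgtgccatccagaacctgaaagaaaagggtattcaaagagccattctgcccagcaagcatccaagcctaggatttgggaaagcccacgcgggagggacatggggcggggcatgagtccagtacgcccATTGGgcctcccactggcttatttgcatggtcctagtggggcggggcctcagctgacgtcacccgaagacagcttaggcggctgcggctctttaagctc
Hmgcs1: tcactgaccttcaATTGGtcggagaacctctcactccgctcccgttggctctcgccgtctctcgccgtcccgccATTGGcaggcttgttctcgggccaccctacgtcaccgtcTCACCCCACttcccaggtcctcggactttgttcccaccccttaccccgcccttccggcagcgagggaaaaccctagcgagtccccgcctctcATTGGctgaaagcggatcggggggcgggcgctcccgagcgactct
Mvk: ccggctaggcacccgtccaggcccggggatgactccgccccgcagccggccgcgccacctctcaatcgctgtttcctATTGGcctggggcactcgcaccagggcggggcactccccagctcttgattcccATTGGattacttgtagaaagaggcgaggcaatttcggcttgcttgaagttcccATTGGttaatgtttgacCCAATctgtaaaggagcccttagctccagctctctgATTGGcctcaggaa
Hsd17b7: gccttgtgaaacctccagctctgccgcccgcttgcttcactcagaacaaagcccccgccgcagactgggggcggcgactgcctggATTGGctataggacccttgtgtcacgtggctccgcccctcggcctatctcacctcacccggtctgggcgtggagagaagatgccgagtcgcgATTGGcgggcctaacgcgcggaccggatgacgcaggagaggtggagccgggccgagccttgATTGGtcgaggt

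The CCAAT box is the site of NF-Y, a known partner of SREBP at sterol promoters. It stood in 23 of 36 windows of 28 members (63.9%), on either strand, against 33.8% of all 32851 windows of this length. *Mvk* held 5, *Hmgcs1* 3, *Hsd17b7* 3 and *Pnpla3* 1. The sterol element, searched as TCACNCCAC on both strands, was found in *Hmgcs1* alone among the members (2.78% of member windows), 137 bases from the start, and in 1.05% of all windows. The core TGACGTGG, bound by XBP1 and ATF6, was in no member window and in 0.563% of all. The letters TGATGNAA, a loose form of the element read by ATF4, were in 3 member windows (8.33%), of *Idi1* and *Insig2*, and in 3.45% of all. Matches this rare are too few in 36 windows for presence or absence to say anything about the control of these genes. Each motif was searched on its own, the match is of letters only, and a gene with several starts has several windows.

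The sterol branch leaned lower in the *Matn3* mutant. Of its 17 measured genes, 10 had their lowest signal there, as did 42.7% of the brighter genes. Between *Matn3* mutant and wild type 5 of the 34 members were over 1.5-fold lower and 1, *Pnpla3*, was over 1.5-fold higher. The background was 17.6% lower and 13.2% higher among brighter genes and 19.3% lower and 21.2% higher among all genes, so the count of lower members was near the background. The median log2 difference was -0.21 over the sterol branch, -0.01 over the fatty acid branch and -0.03 over the regulators, beside -0.08 over the brighter genes.

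The 5 lower members were *Mvk*, *Lss*, *Tm7sf2*, *Dhcr7* and *Acss2*. Mevalonate kinase, *Mvk*, had signals of 132 in the double mutant, 50.4 in the *Matn3* mutant, 139 in the XBP1 null and 143 in the wild type. The *Matn3* mutant array alone was low, by 2.85-fold against the wild type (log2 difference -1.51), and the other 3 lay close together. Its other bright probe set gave the same order of the *Matn3* mutant, at 86.4, 23.5, 93.6 and 113. *Tm7sf2*, one of the sterol reductases acting after lanosterol, read 121, 76.8, 128 and 130, again with the *Matn3* mutant alone low, by 1.69-fold (log2 difference -0.76). *Acss2*, which makes acetyl-CoA from acetate, read 112, 65.4, 100 and 107 (log2 difference -0.71). The probe sets of these 3 genes lay near the median of the genes measured.

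*Lss*, lanosterol synthase, which closes the ring of the sterol, read 821 in the double mutant, 807 in the *Matn3* mutant and 836 in the XBP1 null, against 1404 in the wild type. The wild type array alone was high, 1.74-fold above the *Matn3* mutant and 1.68-fold above the XBP1 null. The other bright probe set of *Lss* did not share this order, at 548, 338, 345 and 357, with the double mutant high. *Dhcr7*, the enzyme of the final reduction to cholesterol, read 283, 232, 250 and 367 in the same order of genotypes. Wild type was again the highest, and the *Matn3* mutant lay 1.58-fold below it (log2 difference -0.66).

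With normal *Matn3*, loss of XBP1 went with few differences past 1.5-fold on the brightest probe sets, and with more on the other probe sets. Between XBP1 null and wild type 1 member was over 1.5-fold higher and 1 was lower, where the background was 18.8% higher and 5.82% lower among brighter genes and 23.3% and 11.5% among all genes. The medians were 0.03 over the sterol branch and 0.00 over the fatty acid branch, beside 0.10 over the brighter genes. With the median over the probe sets of each gene, the fatty acid branch had -0.42 and 3 members were over 1.5-fold lower, and of 34 further probe sets of members 10 were lower (29.4%), against 12.7% of such probe sets of all genes. The sterol median was below 0 with that reading and under quantile normalization. The lower gene was *Lss*, described above. *Stard4*, a carrier of sterol between membranes, lay just within 1.5-fold, at 3289 in the double mutant, 2812 in the *Matn3* mutant, 2756 in the XBP1 null and 4135 in the wild type.

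The higher gene was *Hsd17b7*, the keto-reductase of the removal of the methyl groups at carbon position C4. It read 1285 in the double mutant, 1076 in the *Matn3* mutant, 2060 in the XBP1 null and 1010 in the wild type. The XBP1 null array alone was high, 2.04-fold above the wild type (log2 difference 1.03). Another pair of its probe sets also had their highest signal in the XBP1 null, at 888, 839, 1140 and 615 and at 563, 661, 1463 and 811, and the dimmest, at 55.4, 53.5, 37.0 and 194, had it in the wild type. It was also the 1 member more than 1.5-fold lower in the double mutant than in the XBP1 null (log2 difference -0.68). The XBP1 null pool was the one with the high endothelial and adipocyte markers, whose part in this difference was not tested.

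**Figure D2:**
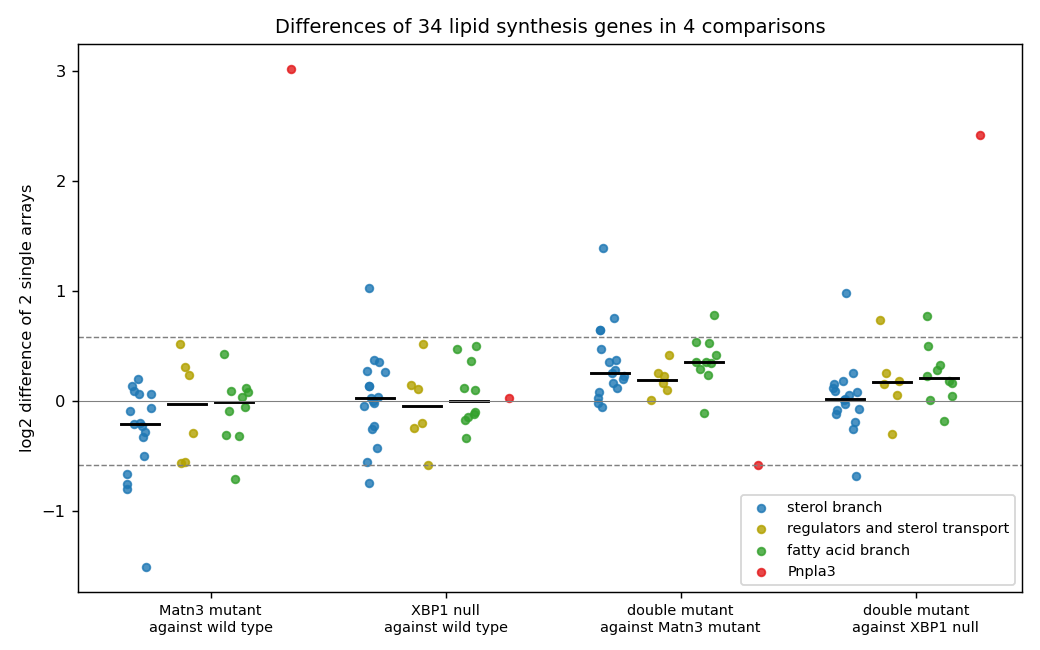
Log2 difference of single arrays (vertical axis) for each of the 34 genes in the 4 comparisons, coloured by branch, with black bars at the branch medians and dashed lines at 1.5-fold. *Pnpla3* stands far above the rest in both comparisons of the *Matn3* mutation, at 3.02 and 2.42, and 30 of the 34 genes lie above 0 between double mutant and *Matn3* mutant.

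On top of the *Matn3* mutation, loss of XBP1 went with higher signals over most of the pathway and over most of the brighter genes alike. Between double mutant and *Matn3* mutant 30 of 34 members were above 0, as were 8108 of the 10982 brighter genes, and the median was 0.27 over the members and 0.19 over the brighter genes. By branch the medians were 0.26 for sterol genes, 0.36 for fatty acid genes and 0.19 for regulators, and under quantile normalization they were 0.11 for sterol genes and 0.22 for fatty acid genes. With the median over the probe sets of each gene the fatty acid median was 0.17. Over 1.5-fold, 5 members were higher and none lower, beside 11.9% higher and 3.0% lower among brighter genes and of 17.4% and 9.03% among all genes, so the count itself was near the background. This comparison shares an array with those of *Matn3* mutant against wild type and of double mutant against XBP1 null.

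The 5 genes were *Mvk*, *Tm7sf2* and *Acss2*, whose *Matn3* mutant signals were the low ones, with *Nsdhl* and *Mvd*. The log2 differences of the first 3 were 1.39, 0.65 and 0.78. *Nsdhl*, a dehydrogenase of the same demethylation as *Hsd17b7*, read 715 in the double mutant, 456 in the *Matn3* mutant, 659 in the XBP1 null and 645 in the wild type, and here too the *Matn3* mutant alone was low. *Mvd*, which decarboxylates mevalonate diphosphate, differed from this pattern, at 430, 254, 218 and 293. There the double mutant alone was high, 1.69-fold above the *Matn3* mutant and 1.97-fold above the XBP1 null. The other bright probe set of *Mvd* did not share this, at 284, 203, 232 and 305. On it the wild type was highest and the *Matn3* mutant lowest.

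Between double mutant and XBP1 null, which differ by the *Matn3* mutation, 4 members were over 1.5-fold higher and 1 was lower. The background was 7.38% higher and 10.5% lower among brighter genes, and 16.6% and 16.9% among all genes. Beside *Pnpla3* and *Mvd* the higher members were *Srebf1* and *Fasn*. Fatty acid synthase, *Fasn*, read 2456 in the double mutant, 1701 in the *Matn3* mutant, 1439 in the XBP1 null and 1818 in the wild type. The double mutant was the highest, 1.71-fold above the XBP1 null, and the other 3 arrays lay closer together.

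Of the regulators, *Srebf1* alone passed 1.5-fold in one of the 4 comparisons on the brightest probe set. *Srebf1*, which encodes SREBP-1, the form that drives lipogenic genes, read 1993 in the double mutant, 1676 in the *Matn3* mutant, 1199 in the XBP1 null and 1419 in the wild type. Both pools with the *Matn3* mutation were above both without it, by 1.18-fold with functional XBP1 and by 1.66-fold without it (log2 differences 0.24 and 0.73). *Srebf2*, which encodes SREBP-2, the form that drives sterol genes, read 1348, 1206, 1208 and 843. Here the wild type alone was low, by a log2 difference of 0.52 against each single alteration and of 0.68 against the double mutant, which is past 1.5-fold. The second bright probe set of *Srebf2* did not share this, at 136, 119, 162 and 148, with the *Matn3* mutant lowest.

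The anchors of SREBP differed in direction. *Insig1*, itself an SREBP target, read 6592 in the double mutant, 6543 in the *Matn3* mutant, 5809 in the XBP1 null and 5268 in the wild type, higher with the *Matn3* mutation on both backgrounds by log2 differences of 0.31 and 0.18. *Insig2* read 621, 465, 599 and 689 and was lowest in the *Matn3* mutant. *Scap*, the escort of SREBP, read 735, 686, 904 and 840, lower with the *Matn3* mutation by -0.29 and -0.30 on the 2 backgrounds. Its fitted effect was -0.30 ± 0.088 (SE) with all probe sets and -0.30 ± 0.274 with the brighter ones only, and neither fit called it.

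The fatty acid branch had its highest signal in the double mutant for 9 of its 10 genes, beside 3404 of the 10982 brighter genes and 6 of the 17 sterol genes. The exception was *Acly*, which makes cytosolic acetyl-CoA from citrate and was highest in the XBP1 null, at 5614, against 4935 in the double mutant. All 10 were above wild type in the double mutant, with a median log2 difference of 0.35 and a range between 0.04 and 0.48, and 61.6% of brighter genes were too, with a median of 0.13. The desaturase gene *Scd2* ran between 8644 in the XBP1 null and 12190 in the double mutant. The desaturase gene *Scd1* ran between 3073 and 4118, and the desaturase gene *Fads1* between 1042 and 1412. *Fads2* and the less well characterised *Fads3* stayed within 607 and 777, and within 309 and 449. The elongase gene *Elovl6* ran between 1131 and 1503, and the carboxylase gene *Acaca* between 597 and 776. When a gene was read as the median over its probe sets in place of the brightest one, only 3 of the 10 were highest in the double mutant and 5 of the 10 were above wild type.

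**Figure D3:**
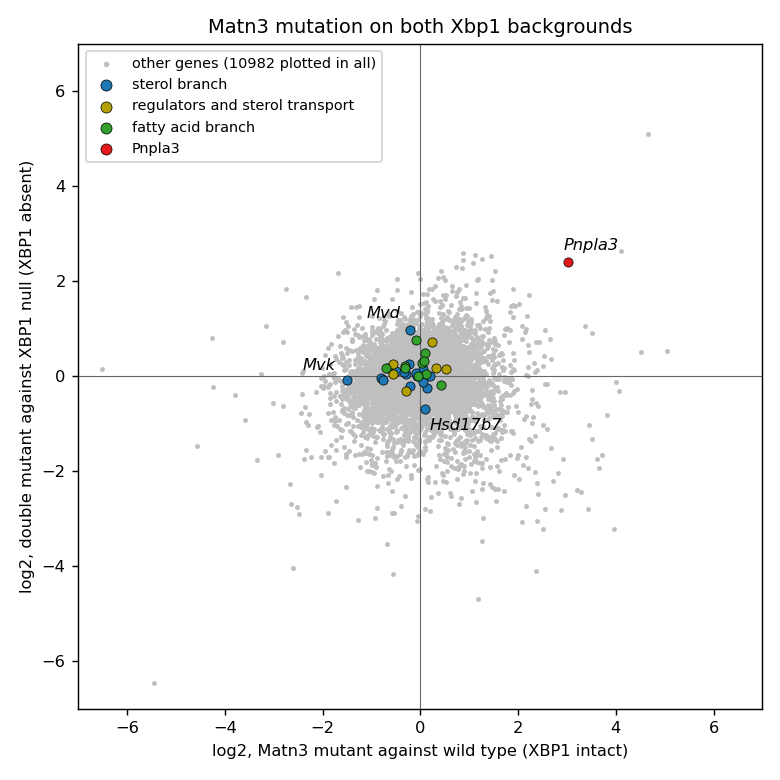
Log2 difference with the *Matn3* mutation where XBP1 is lost (vertical axis, double mutant against XBP1 null) and where it is functional (horizontal axis, *Matn3* mutant against wild type), for the 34 members by branch and, in grey, the other genes at or above the median intensity. *Pnpla3* lies at 2.42 on the vertical and 3.02 on the horizontal axis, and no other member is past 1.5-fold in the same direction on both.

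The *Matn3* mutation went with opposite signs on the 2 backgrounds in 55.9% of members and 47.1% of the brighter genes, so the share was not far from the background. Of the 34 members, 10 were above 0 on both, 5 below 0 on both and 19 of opposite sign, so 44.12% had the same sign, against 52.87% of the brighter genes. For loss of XBP1, 14 members were above 0 on both backgrounds, none was below 0 on both and 20 were of opposite sign (58.8%). Of the 10982 brighter genes, 775 were below 0 on both and 52.3% were of opposite sign. The 14 members are 41.2%, and 40.6% of the brighter genes were above 0 on both, so the count was at the background. No member passed 1.5-fold in one direction on both backgrounds of XBP1 loss, beside 2.33% of brighter genes higher and 0.337% lower. In the additive fit *Fads3* (effect 0.50 ± 0.103, SE) and *Pmvk*, phosphomevalonate kinase (0.37 ± 0.0873), were the 2 of 34 members under 0.05 for XBP1 before adjustment. So were 4.56% of all probe sets, so the count was near the background. Over the alternatives the number of such members ran between 0 and 3. The adjusted p from limma was 0.819 for *Fads3* and for *Pmvk*.

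The remaining sterol genes kept within 1.5-fold throughout. *Hmgcs1*, the synthase of HMG-CoA, ran between 9023 in the XBP1 null and 10780 in the wild type. The isoprenoid genes *Idi1* and *Fdps* ran between 4667 and 5299 and between 3113 and 3989, and *Pmvk* between 1277 and 1895. The squalene genes *Fdft1* and *Sqle* ran between 6467 and 7235 and between 3293 and 4251. Of the later steps, *Cyp51* ran between 4847 and 5558, *Msmo1* between 7279 and 8748, *Ebp* between 690 and 957 and *Sc5d* between 2954 and 3716. Over these genes the highest signal was at most 1.48-fold the lowest on the brightest probe set. Other bright probe sets passed 1.5-fold between XBP1 null and wild type. They were lower for *Hmgcs1* (2.87-fold), *Msmo1* (5.65-fold) and *Sc5d* (1.65-fold), and higher for *Cyp51* (1.57-fold and 1.83-fold).

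Several probe sets measured 24 of the members, 79 probe sets in all, and they did not always give the same order. Of 34 further probe sets at or above the median intensity, the sign was that of the brightest one in 22 between *Matn3* mutant and wild type, in 27 between XBP1 null and wild type, in 26 between double mutant and *Matn3* mutant and in 23 between double mutant and XBP1 null. The wild type was the highest array in 14 of the 34 (41.2%), beside 28.6% of 8430 such probe sets of all genes. Of the 10 that were over 1.5-fold lower between XBP1 null and wild type, 2 are given here. *Scd1* read 966 in the double mutant, 1292 in the *Matn3* mutant, 615 in the XBP1 null and 2087 in the wild type on a second probe set, so that the wild type was the highest. A dim probe set of *Msmo1* likewise read 76.1, 200, 74.8 and 423. Where on the transcripts these probe sets lie was not analysed here.

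**Figure D4:**
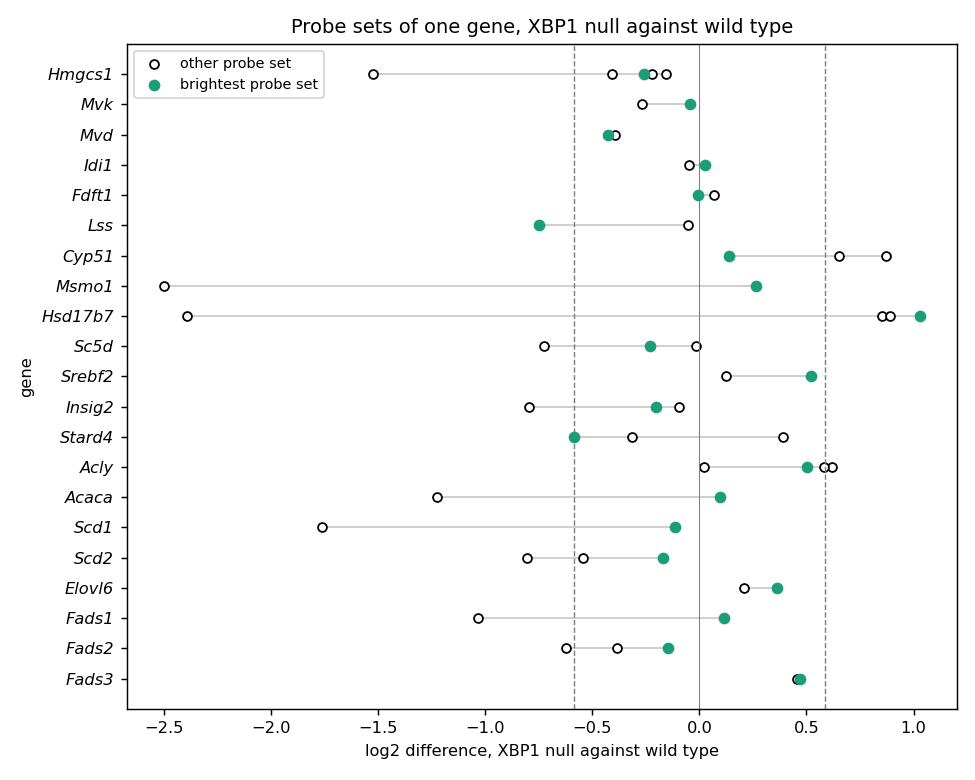
Log2 difference between XBP1 null and wild type (horizontal axis) for the brighter probe sets (no lower than the median intensity) of members with several, with filled points for the brightest probe set, open points for the others and dashed lines at 1.5-fold. Filled points pass the dashed lines for *Lss* and *Hsd17b7*, and 10 of the 34 open points lie past 1.5-fold lower.

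Among 18 further genes of the pathway, 16 lay at or above the median intensity. The counts of the 18 over 1.5-fold were 4 higher and 1 lower between *Matn3* mutant and wild type, and 6 and 1 between XBP1 null and wild type. They were 2 and 1 between double mutant and *Matn3* mutant, and 3 and 3 between double mutant and XBP1 null. Over all genes the shares in that order were 21.2% higher and 19.3% lower, 23.3% and 11.5%, 17.4% and 9.03%, and 16.6% and 16.9%. *Lpin1*, a phosphatidate phosphatase that feeds triglyceride synthesis, read 2650 in the double mutant, 1640 in the *Matn3* mutant, 1159 in the XBP1 null and 1092 in the wild type. The double mutant was the highest, by log2 differences of 0.69 over the *Matn3* mutant and 1.19 over the XBP1 null. *Mbtps2*, one of the proteases that release SREBP, read 737, 777, 707 and 407, with the wild type alone low. *Mlxipl*, the carbohydrate response factor of lipogenesis, was low in the XBP1 null alone, at 58.4, 60.8, 25.5 and 68.0.

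Of 8 genes of sterol export and its receptor LXR, 6 were measured, and 3 lay at or above the median intensity. Their counts over 1.5-fold were 3 higher and 1 lower in both the *Matn3* mutant and the XBP1 null against the wild type, 2 and 1 between double mutant and *Matn3* mutant, and 2 and 3 between double mutant and XBP1 null. Shares over all genes were 21.2% higher and 19.3% lower between *Matn3* mutant and wild type, and 23.3% and 11.5% between XBP1 null and wild type. They were 17.4% and 9.03% between double mutant and *Matn3* mutant, and 16.6% and 16.9% between double mutant and XBP1 null. *Abca1*, a cholesterol exporter and a target of LXR, read 310 in the double mutant, 362 in the *Matn3* mutant, 569 in the XBP1 null and 136 in the wild type. *Abcg1*, of the same function, read 168, 241, 186 and 93.5. The wild type was the lowest array for both. *Apoe*, the apolipoprotein that accepts exported sterol, read 166, 255, 826 and 474, with both *Matn3* mutant pools low.

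Of 8 lipid droplet and lipase genes, 6 lay at or above the median intensity. Of the 8, none was over 1.5-fold higher and 3 were lower between *Matn3* mutant and wild type. Between XBP1 null and wild type 1 was higher and 1 lower. Between double mutant and *Matn3* mutant 3 were higher and none lower, and between double mutant and XBP1 null 1 was higher and 3 lower. Over all genes the shares in that order were 21.2% higher and 19.3% lower, 23.3% and 11.5%, 17.4% and 9.03%, and 16.6% and 16.9%. The droplet coat gene *Plin2* read 2702 in the double mutant, 1327 in the *Matn3* mutant, 1926 in the XBP1 null and 4082 in the wild type. It was lower in each single alteration than in the wild type, by log2 differences of -1.62 and -1.08. *Pnpla2*, the main triglyceride lipase of droplets, read 67.9, 25.5, 33.8 and 36.2, with the double mutant high. *Mgll*, the monoglyceride lipase, read 414, 258, 744 and 267, with the XBP1 null highest.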

How the data were processed

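Values were the intensity of 45037 probe sets on 4 Mouse Genome 430 2.0 arrays, deposited by the authors as a table on a linear scale. The sources used here do not give how probes were summarised and scaled. Values under 1 were set to 1 and taken to log2, and used unscaled. A single gene symbol belonged to 34945 probe sets, several to 932 and none to 9160, and a gene was read from its brightest single-gene probe set (mean log2 over the arrays). Differences of single arrays have no test and were described at 1.5-fold. An additive 2-factor model was fitted with limma 3.58.1 (R 4.3.3; eBayes with trend, Benjamini-Hochberg over all probe sets, threshold 0.05). A check on simulated data required only that seeded effects were recovered on average, and set no condition on calls or p-values. Other steps used pandas 2.3.3 and numpy 2.4.6 in Python 3.11.15.

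The members and lists were chosen with earlier results of these data known. All 34 measured members are accounted for: regulators, *Pnpla3* and members past 1.5-fold are given on every array, the others by range, and genes of other lists were named among those with the 4 largest absolute differences in a comparison. Alternatives were centring of each array, quantile normalization, another floor, the median over probe sets, dropping of probe sets with the suffix x, s or a, brighter probe sets only and eBayes without trend. Other probe sets of members, and the count of genes highest in the double mutant, were looked at after the data had been seen. Promoter windows were matched by symbol for 28 of 35 genes. Arrays of other experiments of the study were not used here.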

Additional observations from a re-analysis of the deposited data

How the results depend on the processing

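Of 125 alternative values for 25 results, 113 stayed within the limits set for a change (a count within 1.5 times, a log2 value within 0.214 of that reported, or the same side of the threshold), 11 moved and 1 gained a call. Within these limits 4 of 40 branch medians changed sign. They were the fatty acid median between *Matn3* mutant and wild type (0.04 under quantile normalization, in place of -0.01), the sterol median between XBP1 null and wild type (-0.08 under quantile normalization and -0.01 with the median over probe sets, in place of 0.03) and the sterol median between double mutant and XBP1 null (-0.02 with the median over probe sets, in place of 0.02). Members over 1.5-fold lower between XBP1 null and wild type numbered 3 under quantile normalization and 3 with the median over probe sets, in place of 1, and members higher numbered 2 with that median, in place of 1. Between double mutant and *Matn3* mutant 1 member was lower under quantile normalization (*Pnpla3*), 1 with the median over probe sets and 1 without probe sets with the suffix x, s or a, in place of 0. Between double mutant and XBP1 null the lower members numbered 2 with the median over probe sets and 0 without those suffixes, in place of 1. With the median over probe sets the fatty acid branch had a median of -0.42 between XBP1 null and wild type, in place of 0.00, and 3 of its 10 genes were highest in the double mutant, in place of 9 (chosen after seeing the data). Among brighter probe sets only, 1 member was called for the *Matn3* mutation, in place of 0: *Pnpla3*, with an effect of 2.72 and an adjusted p of 0.0422, in place of 0.635. That fit had fewer tests and a larger prior weight on the shared spread (7.53 prior degrees of freedom, in place of 1.06).

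The median difference of all genes between double mutant and *Matn3* mutant was 0.15 as reported and 0.07 under quantile normalization. No paired analysis was possible because each genotype had 1 array, and for the same reason leaving out an array could not be fitted. How precise a single difference is cannot be known. The dimmer members *Mvk* and *Acss2* lay near the median of the genes measured, at percentiles 49.5 and 48.1 of mean log2.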
